A study of Mus musculus with 10 samples.

Results

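The genes described here are 32 genes of glycolysis and of the response to low oxygen, among 55401 gene IDs counted in 10 RNA-seq libraries of mouse regulatory T cells (Tregs). They were listed by symbol as the carriers, enzymes and regulators that lead from glucose to lactate or to the mitochondria, with 4 genes of oxygen sensing, and all 32 were found in the table. There were 2 libraries in each of 5 groups. SP-Tregs (libraries SP-9 and SP-10) came from the spleen of untreated mice, and Ischemia-Tregs (Ischemia-4 and Ischemia-3) came from the brain 28 days after ischemic stroke, for which the methods describe a transient occlusion of the middle cerebral artery in male mice. The other 3 groups, iB-Tregs, were Tregs from spleen and lymph node that spent 6 days on primary glial cells from neonatal brain, a layer that the methods describe as mostly astrocytes. All 3 received antibodies to CD3 and CD28 (2 μg/ml each) and IL-2 (20 ng/ml), and iB-Tregs (A) received nothing else. iB-Tregs (B) also received IL-33 (20 ng/ml) and serotonin (10 μM), and iB-Tregs (C) received the same plus the chemokines CCL1 and CCL20 (20 ng/ml each). All groups are labelled C57BL/6J. The methods give 8 to 12 weeks as the age of the mice and describe purification through hCD2, a surface reporter knocked into Foxp3, for the donors of the cultures and for the RNA-seq. It is not stated that libraries of the same group were from different mice or cultures, and the error behind each p-value is the difference between libraries, whether biological or technical.

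Glycolysis splits glucose into pyruvate, which is either reduced to lactate and exported or carried into mitochondria and burned. T cells that are activated through their receptor take up more glucose and make more lactate, and Tregs can run on mitochondrial oxidation of fatty acids as well. When oxygen is short, the prolyl hydroxylases no longer mark HIF-1α for destruction, and this factor then raises glucose carriers, glycolytic enzymes and Pdk1, a kinase that keeps pyruvate out of the mitochondria.

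Together the 32 genes took up more of the RNA in brain Tregs than in spleen Tregs, and more again in the co-cultures. Levels are given in CPM, each count scaled to a library of 1000000 counts after TMM normalization, and the 2 values of a group follow the order SP-9 and SP-10, Ischemia-4 and Ischemia-3, and replicates 1 and 2. Summed over the 32 genes, they were 3118 and 3161 CPM for SP-Tregs, 4685 and 4635 for Ischemia-Tregs, 9425 and 9086 in iB-Tregs (A), 8306 and 8244 in (B) and 7993 and 8059 in (C). The group means were thus 1.48 times the spleen level in the brain and 2.95, 2.64 and 2.56 times that level in (A), (B) and (C), with no overlap between spleen, brain and culture, as SP-Tregs, Ischemia-Tregs and the iB-Tregs are called from here on. Such sums weigh the most abundant genes most. Hif1a alone had group means of 383 CPM in the spleen and 1057 in the brain, where the mean sums were 3140 and 4660. Pkm had means of 453 CPM in the spleen, 707 in the brain and 1938 in (A). SP-Tregs held the lowest group mean for 23 of the 32 genes, and iB-Tregs (A) the highest for 16. The same shares over all genes were not taken, so these 2 counts stand as a description.

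The table carried a fault that touches these values. In the 4 libraries from spleen and brain the counts stand beside their own gene ID only in the first rows, and further down they stand a few rows below it. They were slid back by 1 to 19 rows in fixed row ranges that hold 27 of the 32 genes, 9 of them in rows that needed no move. Over the 20879 moved IDs, log2 counts in vivo and in culture correlated across genes with r = 0.286 as deposited and r = 0.929 after the slide. Tpi1, Mpc1, Pgk1, Ldha and Eno1 lie between those ranges. Their rows were placed by a further step, chosen after the data were seen, that puts each slide at an annotated gene ID that the ID column skips (r = 0.155 before and 0.920 after, over 1106 IDs). The iB-Treg columns needed no move. Total counts were 5186728 to 6634583 in the libraries from mice and 15628261 to 16388161 in the co-cultures, and mitochondrial rRNA held 13.6% to 15.7% of counts in the first against 0.121% to 0.169% in the second. These differences in depth and kind of RNA cannot be told apart from culture itself in any comparison of an iB-Treg group with the spleen or brain.

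Foxp3, which defines Tregs, was at 729 and 700 CPM in the spleen, 841 and 796 in the brain and 240 to 296 in the co-cultures. Treg markers were present in every library, with sums over 6 markers of 2744 to 2893 CPM in the spleen, 3920 to 4022 in the brain and 3277 to 3774 in the co-cultures. Single markers differed from these sums, and Ikzf2, a Treg transcription factor named after its values were seen, was at 907 to 1282 CPM in the libraries from mice and 198 to 249 in culture. Over 6 T cell markers the sum was 3103 to 3279 CPM in the spleen, 4045 to 4475 in the brain and 2094 to 2383 in culture. RNA of other cells was present too. Over 17 markers of microglia and macrophages the sum was 311 to 379 CPM in the spleen, 497 to 521 in the brain, 2716 to 2794 in iB-Tregs (A), 5636 to 5708 in (B) and 4692 to 5032 in (C). P2ry12, Trem2, Tyrobp and Cd14 were at 0 in SP-Tregs, and Adgre1 was at 0 in the brain. The sum over 15 astrocyte markers was 57.4 to 110 CPM in the libraries from mice, where Fabp7, Clu, Sparcl1, Mlc1 and S100b had no count, and 211 to 265 CPM in the co-cultures, where Gfap reached at most 3.45 CPM. The 4 B cell markers summed to 34.7 to 42.4 CPM in the libraries from mice and to at most 3.53 CPM in culture, and 5 fibroblast markers to at most 6.56 CPM anywhere. The part of these cells in the changes against spleen was not tested. More cells of a type and more RNA per cell cannot be told apart in such bulk libraries.

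**Figure D1:**
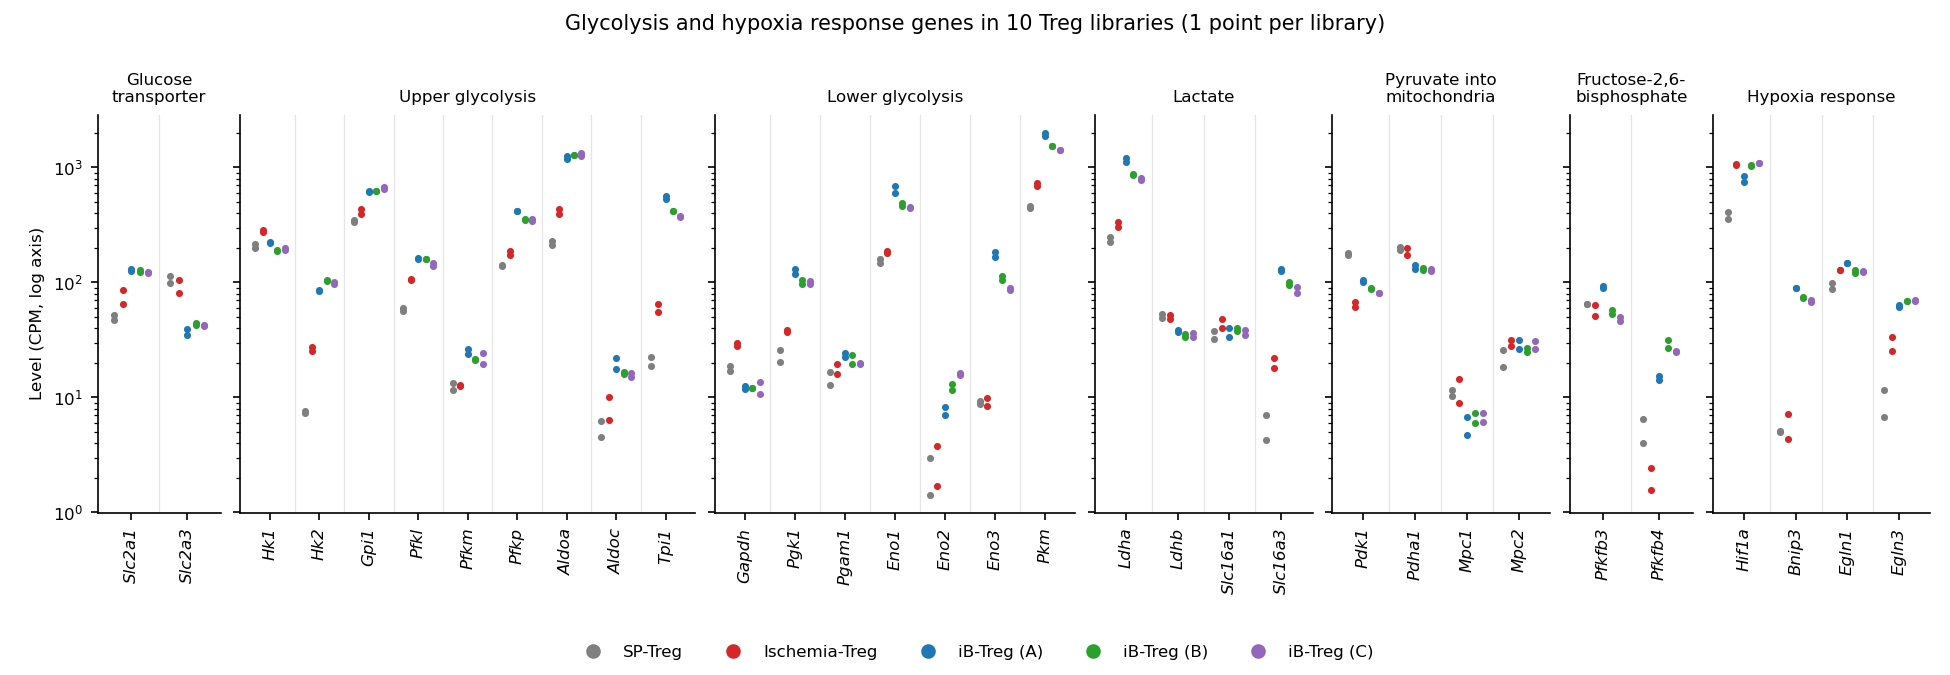
Level of each of the 32 genes in each of the 10 libraries (CPM, log axis), grouped by role, with 1 point per library and 1 color per group. Hk2, Tpi1, Slc16a3 and Egln3 step up from spleen (gray) to brain (red) to culture (blue, green, purple), while Eno3 and Bnip3 overlap the spleen in the brain and are high in the 3 cultures, and Pdk1 is highest in the spleen.

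Against SP-Tregs, most glycolytic enzymes were higher in the brain and nearly all were higher in culture. In Ischemia-Tregs, 13 of the 27 genes in the fixed ranges were higher and 2 lower at an adjusted p under 0.05 (edgeR quasi-likelihood test over 13000 genes), where 20.4% of all genes tested were higher and 18.3% lower. In iB-Tregs (B) 18 were higher and 5 lower, where the shares of all genes were 39.6% and 32.7%. The counts were 19 and 5 in (A), where all genes gave 40.0% and 32.7%, and 18 and 6 in (C), where they gave 39.3% and 32.2%. With the 5 placed genes counted in (13480 genes tested), 17 of 32 were higher and 2 lower in Ischemia-Tregs, where 20.5% and 18.1% of all genes were. The counts were then 23 and 6 in (A) against 40.0% and 32.6%, 22 and 6 in (B) against 39.7% and 32.5%, and 22 and 7 in (C) against 39.4% and 32.2%. The median log2 fold change over the 27 genes was 0.35 in the brain and 1.06, 1.31 and 1.29 in (A), (B) and (C), while the median over all genes was 0.00 in the brain and 0.13 to 0.14 in culture. All 4 comparisons use the same SP-Treg libraries. Of the 9 genes in rows that needed no move, 4 were higher and 1 lower in the brain, and 7 were higher and 2 lower in each co-culture.

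**Figure D2:**
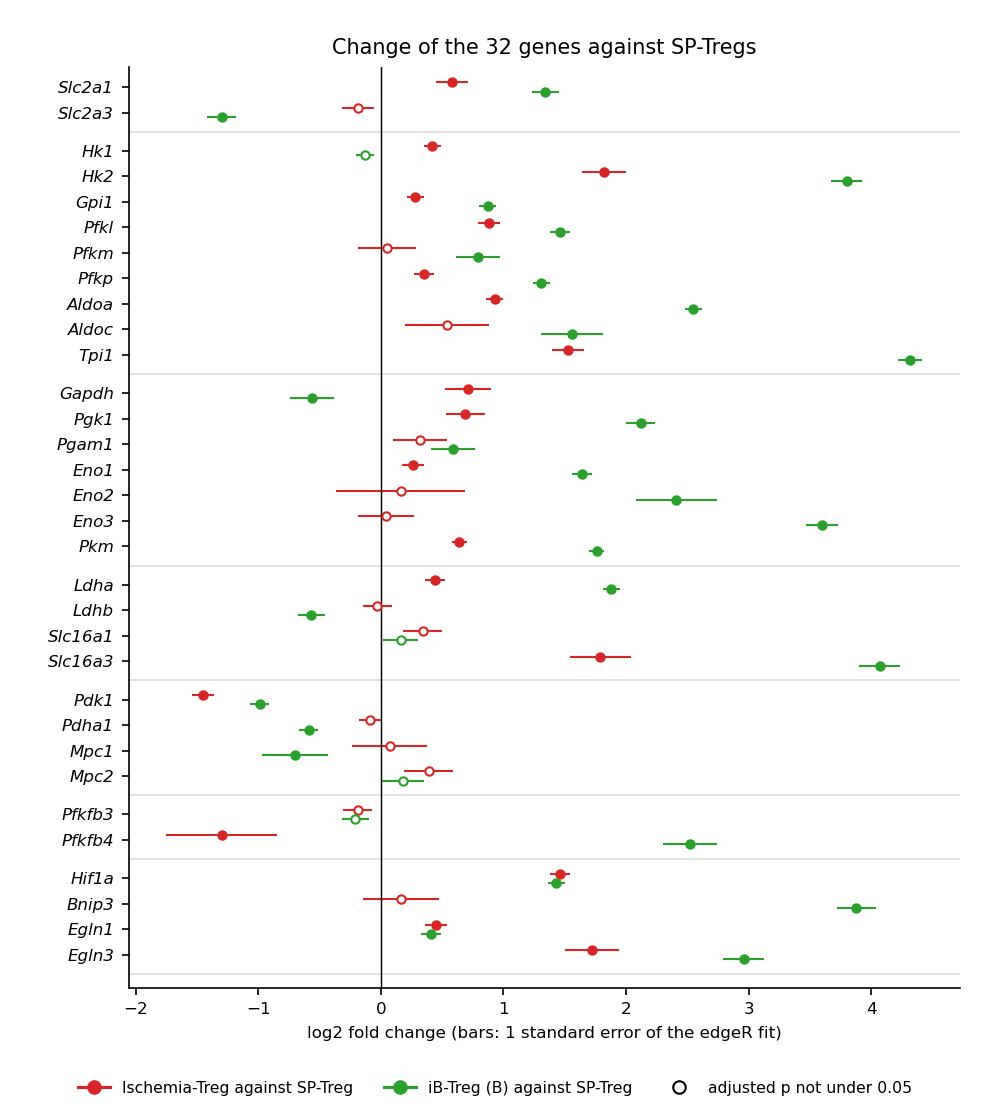
Log2 fold change of each gene in Ischemia-Tregs (red) and iB-Tregs (B) (green) against SP-Tregs, with bars of 1 standard error of the edgeR fit and open points where the adjusted p was not under 0.05. Most enzymes lie to the right of 0 in both, further right in the co-culture. Slc2a3, Gapdh, Ldhb, Pdha1 and Mpc1 lie to the left of 0 in the co-culture and not past the test, or to the right, in the brain, and Pdk1 lies to the left in both.

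The DNA just before the start of the genes that changed most, and of Pdk1, which fell, shows how far they share the core of the HIF binding site. Each line gives the 250 bases before the RefSeq start (GRCm38.p6), 5′ to 3′ on the strand of the gene, with ACGTG or GCGTG on either strand in capitals (CACGT and CACGC are the same letters read on the other strand).
Hk2, chr6:82774455-82774704, minus strand: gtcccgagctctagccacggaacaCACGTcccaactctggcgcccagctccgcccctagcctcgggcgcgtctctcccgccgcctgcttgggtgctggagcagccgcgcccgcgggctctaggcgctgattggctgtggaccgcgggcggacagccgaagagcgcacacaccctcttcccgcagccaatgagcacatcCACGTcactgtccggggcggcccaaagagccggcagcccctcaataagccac
Slc16a3, chr11:120948817-120949066, plus strand: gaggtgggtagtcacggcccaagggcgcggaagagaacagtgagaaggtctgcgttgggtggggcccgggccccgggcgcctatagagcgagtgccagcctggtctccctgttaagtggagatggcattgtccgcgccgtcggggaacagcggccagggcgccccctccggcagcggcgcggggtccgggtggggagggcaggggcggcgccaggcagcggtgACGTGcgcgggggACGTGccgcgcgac
Eno3, chr11:70656926-70657175, plus strand: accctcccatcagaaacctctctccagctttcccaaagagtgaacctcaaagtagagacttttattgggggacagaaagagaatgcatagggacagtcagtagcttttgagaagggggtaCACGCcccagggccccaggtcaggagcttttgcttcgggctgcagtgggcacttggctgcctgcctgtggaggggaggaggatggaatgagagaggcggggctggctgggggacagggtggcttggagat
Tpi1, chr6:124814159-124814408, minus strand: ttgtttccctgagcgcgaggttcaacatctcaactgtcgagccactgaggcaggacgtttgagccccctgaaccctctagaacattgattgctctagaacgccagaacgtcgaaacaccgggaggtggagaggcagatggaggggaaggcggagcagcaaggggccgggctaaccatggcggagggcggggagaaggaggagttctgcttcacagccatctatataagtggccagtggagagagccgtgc
Pdk1, chr2:71872974-71873223, plus strand: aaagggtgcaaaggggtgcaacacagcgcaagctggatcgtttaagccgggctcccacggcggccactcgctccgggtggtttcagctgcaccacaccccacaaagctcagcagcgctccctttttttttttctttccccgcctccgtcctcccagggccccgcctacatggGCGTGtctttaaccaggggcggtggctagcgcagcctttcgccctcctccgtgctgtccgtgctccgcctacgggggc
Bnip3, chr7:138909507-138909756, minus strand: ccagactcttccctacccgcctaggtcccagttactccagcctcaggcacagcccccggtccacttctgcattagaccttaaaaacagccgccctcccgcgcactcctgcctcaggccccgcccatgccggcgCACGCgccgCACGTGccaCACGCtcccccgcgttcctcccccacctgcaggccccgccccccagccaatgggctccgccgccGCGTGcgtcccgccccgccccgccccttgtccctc
Egln3, chr12:54203875-54204124, minus strand: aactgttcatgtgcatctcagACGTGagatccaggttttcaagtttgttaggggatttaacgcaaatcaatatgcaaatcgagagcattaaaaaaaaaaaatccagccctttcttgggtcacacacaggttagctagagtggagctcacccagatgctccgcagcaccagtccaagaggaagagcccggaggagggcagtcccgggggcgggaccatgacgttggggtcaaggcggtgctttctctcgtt

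Bnip3 held 5 matches, a pair of which overlap on opposite strands in the E-box CACGTG, a palindrome that is also bound by factors such as MYC. Hk2 and Slc16a3 held 2 each, Eno3, Egln3 and Pdk1 held 1 each, and Tpi1 none. In Slc16a3 the nearer match lies 10 bases before the start, and in Egln3 the match lies 225 bases before it. Of the 31 genes with a sequence in RefSeq's table, 25 (80.6%) held at least 1 match in this window, against 38.6% of 27025 genes with a window of the same length, and 5 (16.1%) held an E-box, against 6.05%. The 27025 genes were not matched to the 31 for gene type or base composition, and both forms of the core hold a CG. Known HIF targets are among the genes by choice, and a match of letters is no binding site.

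Glucose enters T cells through the facilitative transporters GLUT1 (Slc2a1) and GLUT3 (Slc2a3), and the first rose in culture while the second fell. Slc2a1 was at 47.5 and 52.6 CPM in the spleen, 64.9 and 85.5 in the brain, 125 and 131 in iB-Tregs (A), 128 and 124 in (B) and 123 and 120 in (C). All brain libraries lay above the spleen and all cultures above the brain, with a log2 fold change of 0.58 ± 0.13 (SE) in the brain (adjusted p = 0.0017) and 1.34 ± 0.11 in (B) (adjusted p = 8.2e-09). Slc2a3 was at 114 and 99.5 CPM in the spleen, 106 and 80.2 in the brain, 34.9 and 39.7 in (A), 44.0 and 43.0 in (B) and 43.0 and 41.8 in (C). Spleen and brain overlapped (adjusted p = 0.24, but log2 -0.42 and adjusted p = 0.017 without Ischemia-4), and every culture lay far below both, at -1.30 ± 0.12 in (B) against spleen (adjusted p = 3.1e-08) and -1.11 ± 0.12 against brain (adjusted p = 4.3e-07). Per kilobase of exon, Slc2a1 made up 46.3% and 52.2% of the pair in the spleen and 85.5% to 88.1% in culture. Exact permutation of 2 and 2 libraries allows no p under 0.33, so such shares stand as a description. The length used here and below joins all annotated exons of a gene and can exceed that of 1 transcript. For Slc2a3 it was 7245 bases against a transcript of 3959, and for Slc2a1 3506 against 3260. The size of a share depends on this choice of length.

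Of the hexokinases, which trap glucose by phosphorylation, the inducible Hk2 changed most. Its levels were 7.38 and 7.68 CPM in the spleen, 27.5 and 25.5 in the brain, 84.9 and 85.1 in (A), 103 and 106 in (B) and 101 and 97.4 in (C). The groups from spleen, brain, (A) and the cultures with IL-33 and serotonin formed 4 separate steps. The rise over spleen was 3.54-fold in the brain (log2 1.82 ± 0.18, adjusted p = 5.9e-07) and 13.9-fold in (B) (log2 3.80 ± 0.13, adjusted p = 1.3e-13), and (B) exceeded brain by 1.97 ± 0.11 (adjusted p = 4.2e-11). Hk1, the constitutive form, had 201 and 217 CPM in the spleen, 285 and 274 in the brain, 225 and 221 in (A), 193 and 189 in (B) and 198 and 193 in (C). It was highest in the brain, 0.42 ± 0.07 over spleen (adjusted p = 0.00022), and did not pass the test in the co-cultures against spleen, except that scaling from the rows that needed no move gave -0.31 in (B) and -0.27 in (C) (adjusted p = 0.00087 and 0.0023). Hk2 accordingly made up 4.82% and 4.98% of the pair per kilobase in the spleen, 11.7% and 12.1% in the brain, 35.0% and 35.5% in (A) and 41.9% to 44.5% in (B) and (C).

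The next steps convert and split the sugar phosphate, and of the 9 genes from hexokinase to Tpi1, 7 rose in the brain and 8 in (B). Gpi1, the isomerase, rose by 0.28 ± 0.07 in the brain (adjusted p = 0.0044) and 0.87 ± 0.07 in (B) (adjusted p = 4e-09). Phosphofructokinase, the committed step, has 3 isozymes here, and the liver form Pfkl stood at 59.8 and 56.0 CPM in the spleen, 108 and 105 in the brain and 138 to 163 across the 6 co-culture libraries. The platelet form Pfkp went from 140 and 143 CPM in the spleen to 187 and 172 in the brain and 345 to 422 in culture. Both rose at each step without overlap, whereas the muscle form Pfkm (11.6 to 26.5 CPM over all libraries) passed the test in the cultures and not in the brain (log2 0.05 ± 0.24, adjusted p = 0.93). Aldoa, the main aldolase, was at 211 and 227 CPM in the spleen, 435 and 396 in the brain, 1253 and 1185 in (A), 1283 and 1281 in (B) and 1258 and 1329 in (C). The gain over spleen was 0.93 ± 0.07 on the log2 scale in the brain (adjusted p = 4.2e-08) and 2.55 ± 0.07 in (B) (adjusted p = 1e-14), and (B) and (C) overlapped, with (A) just below them. Aldoc, better known from brain astrocytes, stayed at or below 2.55% of aldolase per kilobase in every library.

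Triosephosphate isomerase, Tpi1, which interconverts the triose phosphates, had the largest fold of the 32 genes in (B). Its levels were 22.5 and 18.8 CPM in the spleen, 64.4 and 55.6 in the brain, 565 and 531 in (A), 414 and 415 in (B) and 367 and 376 in (C). No 2 of these 5 groups overlapped. The fold over spleen was 2.90 in the brain (adjusted p = 9.3e-08) and 19.9 in (B) (log2 4.32 ± 0.10, adjusted p = 1e-15), both from the placed rows. Its window printed above holds no match to the core.

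In the lower part of the pathway, which makes ATP, 6 of 7 enzyme genes rose in (B) and Gapdh fell, and in the brain 4 rose. Pgk1 went from 26.1 and 20.2 CPM in the spleen to 38.6 and 36.8 in the brain and 96.4 to 132 in the co-cultures. Pkm, pyruvate kinase, which carries the last of these steps, had 445 and 461 CPM in the spleen, 683 and 732 in the brain, 1998 and 1879 in (A), 1541 and 1526 in (B) and 1407 and 1410 in (C). Its groups did not overlap, with (A) highest and log2 gains over spleen of 0.64 ± 0.06 in the brain (adjusted p = 7.8e-07) and 1.76 ± 0.06 in (B) (adjusted p = 2.5e-13). Gapdh was at 17.0 and 18.8 CPM in the spleen, 28.2 and 29.9 in the brain and 10.7 to 13.5 in the co-cultures. It was thus higher in the brain (log2 0.71 ± 0.19, adjusted p = 0.0082) and lower in (B) (log2 -0.56 ± 0.18, adjusted p = 0.012). The second call was lost when SP-10, B-Treg1 or B-Treg2 was left out (log2 -0.48, -0.55 and -0.54), and the first when SP-9 was left out (log2 0.62). The first was also lost when edgeR was fitted to only the 4 libraries compared (log2 0.71, adjusted p = 0.051).

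The level of Gapdh is far below what its neighbors in the pathway show, at 4.32 CPM per kilobase in the spleen against 90.6 for Pkm. Transcripts of 49 other annotated genes match 88.0% of its transcript at an identity of 97% or more over at least 100 bases, and the 19 of them with a placed row held 41.8 to 48.7 CPM in the spleen, 97.8 and 108 in the brain and 6.11 to 10.2 in culture. At least 50% of the transcript is matched in this way also for Pgk1, Eno1, Pkm, Ldhb, Mpc1 and Bnip3. How reads of such copies were assigned is not given in the sources used here, so the values of these 7 genes are uncertain. The copies of Eno1 held 63.6 and 68.2 CPM in the spleen, 93.8 and 79.2 in the brain and 20.2 to 39.1 CPM in culture, while the 1 copy of Bnip3 with a placed row held at most 0.569 CPM. Shorter matches leave the values of Pfkp (above) and Pgam1 uncertain too. The 1 copy of Pgam1 held 27.3% and 20.5% of the CPM of gene and copy together in the spleen, 19.2% and 17.7% in the brain and 4.51% to 9.45% in culture. Pgam1, the mutase, rested on few reads (12.8 to 24.5 CPM), and its rise in (B) (log2 0.59 ± 0.18, adjusted p = 0.0076) was lost without SP-9 (adjusted p = 0.14).

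The 3 enolases parted. Eno1, the common form, was at 147 and 161 CPM in the spleen, 182 and 186 in the brain, 693 and 601 in (A), 489 and 463 in (B) and 454 and 441 in (C). Eno3, the form best known from muscle, was at 8.77 and 9.38 CPM in the spleen, 9.96 and 8.49 in the brain, 184 and 168 in (A), 114 and 105 in (B) and 86.1 and 88.6 in (C). Brain and spleen overlapped for Eno3 (log2 0.04 ± 0.23, adjusted p = 0.93), and the cultures were 12.1-fold above spleen in (B) (log2 3.60 ± 0.13, adjusted p = 3.6e-13) and fell from (A) to (B) to (C). Per kilobase of all annotated exons Eno3 made up 12.1% to 15.3% of enolase in the libraries from mice and 36.0% to 46.1% in culture. That length was 5379 bases for Eno1 and 1739 for Eno3, against transcripts of 2027 and 1564 bases. By transcript length the Eno3 shares would be smaller. Eno2, the neuronal form, never exceeded 16.2 CPM and also rose in (B) (log2 2.41 ± 0.33, adjusted p = 5e-06).

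**Figure D3:**
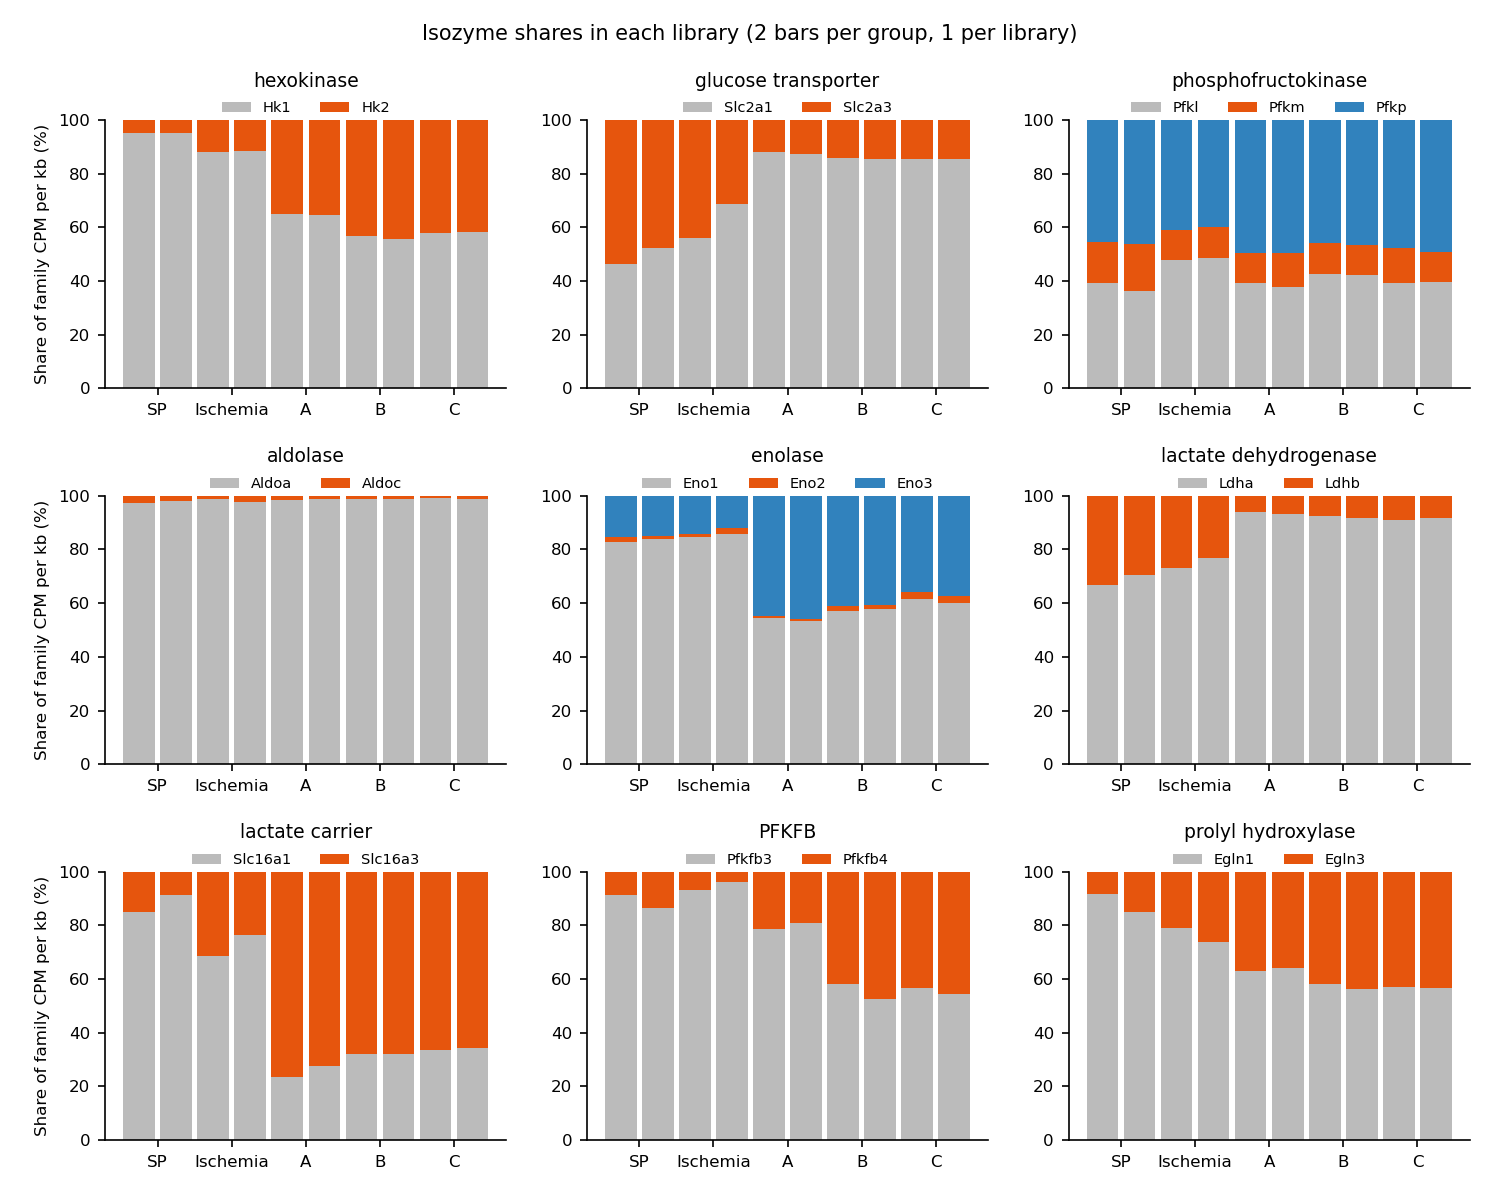
Share of each isozyme in the summed CPM per kilobase of its family (percent, 2 bars per group in the order SP-Treg, Ischemia-Treg, iB-Treg (A), (B) and (C)). Hk2, Slc2a1, Eno3, Ldha, Slc16a3, Pfkfb4 and Egln3 take larger shares in the co-cultures than in the spleen, and the aldolase shares barely move, with Aldoa at 97.5% or more everywhere.

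The subunits of lactate dehydrogenase moved in opposite directions in culture. Ldha, the subunit that favors making lactate, had 224 and 249 CPM in the spleen, 303 and 334 in the brain, 1197 and 1122 in (A), 868 and 860 in (B) and 777 and 809 in (C). It was above spleen by 0.44 ± 0.08 in the brain (adjusted p = 0.00034) and by 1.88 ± 0.07 in (B) (adjusted p = 7.5e-13). Ldhb, the subunit that favors using lactate, had 53.2 and 49.5 CPM in the spleen, 52.5 and 48.1 in the brain, 37.0 and 38.5 in (A), 33.3 and 35.9 in (B) and 36.2 and 33.7 in (C). Spleen and brain overlapped, and all cultures lay below both (log2 -0.57 ± 0.11 in (B) against spleen, adjusted p = 0.00018). The Ldhb share per kilobase was 29.5% and 33.4% in the spleen, 23.3% and 26.8% in the brain and 6.12% to 8.94% in culture.

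Lactate leaves the cell through monocarboxylate transporters. Slc16a3 (MCT4), the exporter of strongly glycolytic cells, was at 6.98 and 4.26 CPM in the spleen, 22.1 and 17.9 in the brain, 132 and 126 in (A), 95.4 and 101 in (B) and 91.9 and 81.6 in (C). Spleen, brain and culture did not overlap, and the folds over spleen were 3.46 in the brain (log2 1.79 ± 0.25, adjusted p = 2.5e-05) and 16.8 in (B) (log2 4.07 ± 0.17, adjusted p = 1.4e-12). Slc16a1 (MCT1), the other carrier, stayed between 32.3 and 48.4 CPM in all 10 libraries, and none of the 4 comparisons with the spleen passed (adjusted p 0.1 to 0.61). Brain and spleen did not overlap, and without Ischemia-4 it was called higher in the brain (log2 0.49, adjusted p = 0.045). The 2 carriers thus changed rank, with Slc16a3 at 8.64% and 15.2% of the pair per kilobase in the spleen and 65.9% to 76.7% in culture.

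Of the 4 genes here that act where pyruvate enters mitochondria, Pdk1 was lower than spleen in brain and culture, and Pdha1 and Mpc1 in culture. Pdk1, which inactivates pyruvate dehydrogenase and is a known HIF-1 target, was at 173 and 180 CPM in the spleen, 61.2 and 67.9 in the brain, 101 and 106 in (A), 87.9 and 89.0 in (B) and 81.7 and 80.5 in (C). The spleen was highest and the brain lowest, without overlap, and the log2 fold change was -1.45 ± 0.09 in the brain (adjusted p = 2.5e-09) and -0.99 ± 0.08 in (B) (adjusted p = 4.9e-09). The row of this gene needed no move, and its window printed above holds 1 match to the core. Pdha1, a subunit of the dehydrogenase, had 190 and 204 CPM in the spleen, 198 and 172 in the brain and 126 to 141 in culture, lower in (B) by 0.59 ± 0.08 on the log2 scale (adjusted p = 5.2e-06). Other subunits of the same complex, outside the 32 genes, were higher in (B) than in spleen, Pdhb by 0.96 ± 0.10 (adjusted p = 1.3e-07) and, named after their values were seen, Dlat, Dld and Pdhx by 0.41 to 0.71. Pdhb was higher in the brain too (0.63 ± 0.11, adjusted p = 0.00034). The pyruvate carrier subunits were low. Mpc1 (4.68 to 14.5 CPM) was lower in all 3 cultures (log2 -0.70 ± 0.27 in (B), adjusted p = 0.03), and Mpc2 (18.5 to 31.3 CPM) passed in none of the 4 comparisons with spleen, but was called higher without SP-9 in the brain (log2 0.69, adjusted p = 0.048), (A) (0.65, 0.019) and (C) (0.66, 0.019), in (A) also without A-Treg1 (adjusted p = 0.046), and in (A) and (C) with no filter on low counts (adjusted p = 0.032 and 0.03).

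Pfkfb3 and Pfkfb4 make fructose-2,6-bisphosphate, the strongest activator of phosphofructokinase. Both were higher in (A) than in spleen, and from (A) to (B) they moved in opposite directions. Pfkfb3 had 64.6 and 64.5 CPM in the spleen, 51.0 and 63.2 in the brain, 89.2 and 92.7 in (A), 58.1 and 53.4 in (B) and 50.0 and 46.5 in (C), highest in (A) and lowest in (C). Against spleen it was higher in (A) (log2 0.49 ± 0.10, adjusted p = 0.0004), lower in (C) (-0.42 ± 0.11, adjusted p = 0.0021) and not past the test in (B) (adjusted p = 0.081), except with scaling from the rows that needed no move (-0.39, adjusted p = 0.0036). Pfkfb4 had 3.99 and 6.54 CPM in the spleen, 2.43 and 1.57 in the brain, 15.5 and 14.2 in (A), 27.0 and 31.3 in (B) and 24.6 and 25.2 in (C). The brain was lowest for Pfkfb4 and the cultures with IL-33 and serotonin highest, 5.74-fold above spleen in (B) (log2 2.52 ± 0.22, adjusted p = 2.4e-08), after 1.55 ± 0.24 in (A) (adjusted p = 2.1e-05). The fall of Pfkfb4 in the brain (log2 -1.30 ± 0.45, adjusted p = 0.029) rested on few reads. Its call was lost without SP-10 (log2 -0.95) or Ischemia-3 (log2 -1.05). It was also lost when edgeR was fitted to only the 4 libraries compared (log2 -1.34, adjusted p = 0.16).

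Of the genes of the oxygen response, Hif1a, the subunit that oxygen controls, reached similar levels, 1028 to 1065 CPM, in brain Tregs and in iB-Tregs (B). It had 409 and 357 CPM in the spleen, 1065 and 1048 in the brain, 754 and 843 in (A), 1028 and 1047 in (B) and 1092 and 1084 in (C). Every other group was above spleen, (A) lay between, and (B) did not differ from brain beyond the error (log2 -0.03 ± 0.07, adjusted p = 0.75), after gains over spleen of 1.46 ± 0.08 in the brain (adjusted p = 1.9e-10) and 1.43 ± 0.07 in (B) (adjusted p = 2.3e-11). Egln3, a prolyl hydroxylase that is itself a HIF target, had 6.78 and 11.7 CPM in the spleen, 25.3 and 33.6 in the brain, 63.7 and 61.1 in (A), 68.8 and 68.7 in (B) and 68.9 and 71.0 in (C). It rose at both steps, by 1.72 ± 0.22 in the brain (adjusted p = 1.4e-05) and by 2.96 ± 0.17 in (B) (adjusted p = 1.2e-10), and its share of the pair with Egln1 grew from 8.49% and 15.2% per kilobase in the spleen to 42.0% and 43.7% in (B). Egln1, the main oxygen sensor, moved less, from 98.7 and 87.6 CPM in the spleen to 129 and 127 in the brain and 120 to 148 in culture.

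Bnip3, a mitophagy receptor on the outer mitochondrial membrane and a HIF target, parted brain from culture. It was at 4.99 and 5.12 CPM in the spleen, 4.37 and 7.23 in the brain, 90.3 and 89.8 in (A), 74.9 and 73.3 in (B) and 70.3 and 67.7 in (C). Spleen and brain overlapped (log2 0.16 ± 0.31, adjusted p = 0.74), and the level in (B) was 14.7-fold above spleen (log2 3.88 ± 0.16, adjusted p = 1.6e-12) and 13.1-fold above brain (adjusted p = 4.7e-12). Exons of Gm45507 on the other strand overlap 22.3% of its exons, and whether the counting used strand is not given in the sources used here.

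The direct test of iB-Tregs (B) against Ischemia-Tregs found 16 of 27 genes higher and 5 lower in the co-culture, where 38.6% and 31.0% of all genes were, and 20 and 6 of 32 with the placed genes. It is also the test of whether brain and co-culture differed in their change from spleen. Besides Bnip3, the largest differences were Pfkfb4 (log2 3.82 ± 0.29, adjusted p = 3.6e-09), Eno3 (3.56 ± 0.14, adjusted p = 7.9e-13), Tpi1 (2.78 ± 0.09, adjusted p = 5.1e-14) and Slc16a3 (2.28 ± 0.14, adjusted p = 2e-10). Lower in the co-culture were Slc2a3, Hk1 (log2 -0.55 ± 0.07, adjusted p = 1.8e-06), Gapdh, Ldhb, Pdha1 and Mpc1. Pdk1, lowest in the brain of the 5 groups, was higher in (B) than in brain by 0.46 ± 0.09 (adjusted p = 0.00026). Hif1a, Egln1, Pfkfb3, Pgam1, Slc16a1 and Mpc2 did not pass.

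With IL-33 and serotonin added to the co-culture, more of the 32 genes were lower than higher. In iB-Tregs (B) 13 were lower and 5 higher than in (A) (edgeR over the 6 co-culture libraries, 14713 genes), where 14.5% of all genes were lower and 15.6% higher, so that the higher count is at the share of all genes. No change reached 2-fold. The lower genes included Eno3 (log2 -0.68 ± 0.06, adjusted p = 3.1e-09), Pfkfb3 (-0.70 ± 0.06, adjusted p = 7.7e-09), Eno1 (-0.44 ± 0.06, adjusted p = 1.7e-06), Ldha (-0.42 ± 0.04, adjusted p = 1.7e-07), Tpi1 (-0.40 ± 0.05, adjusted p = 4.4e-07), Slc16a3 (-0.39 ± 0.06, adjusted p = 2.4e-05) and Pkm (-0.33 ± 0.04, adjusted p = 2.5e-06). Pgk1, Bnip3, Pfkp, Egln1, Hk1 and Pdk1 were lower by 0.22 to 0.29. The higher genes were Pfkfb4 (0.97 ± 0.10, adjusted p = 5.5e-08), Eno2 (0.71 ± 0.13, adjusted p = 0.00017), Hif1a (0.38 ± 0.05, adjusted p = 1.7e-06), Hk2 (0.30 ± 0.05, adjusted p = 0.00014) and Slc2a3 (0.23 ± 0.07, adjusted p = 0.023). Known HIF targets went both ways, with Hk2 and Pfkfb4 among those higher and Ldha, Tpi1, Slc16a3, Pdk1 and Bnip3 among those lower. Outside the 32 genes, 4 of 24 other hypoxia targets and oxygen sensors were higher and 3 lower, both near the shares of all genes. Vegfa was among the higher (0.25 ± 0.05, adjusted p = 0.0011). Slc2a1 and Aldoa did not pass the test (log2 -0.02 ± 0.05 and 0.08 ± 0.04), except Aldoa without A-Treg1 (0.12, adjusted p = 0.04). The call of Slc2a3 was lost by DESeq2 (adjusted p = 0.097) and by edgeR over all 10 libraries (adjusted p = 0.21). It was also lost without A-Treg1, B-Treg1 or B-Treg2 (log2 0.14, 0.21 and 0.25), and that of Egln1 was lost without B-Treg2 (log2 -0.19). Of the 17 markers of microglia and macrophages, 14 were higher and 1 lower in (B) than in (A), Foxp3 was lower (log2 -0.28 ± 0.04, adjusted p = 4e-05), and the part of these cells in the changes was not tested.

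The balance of Pfkfb3 and Pfkfb4 differed between these cultures. Pfkfb4 held 21.3% and 19.2% of the pair per kilobase in (A), 41.9% and 47.6% in (B) and 43.3% and 45.6% in (C), against 3.71% and 6.88% in the brain.

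**Figure D4:**
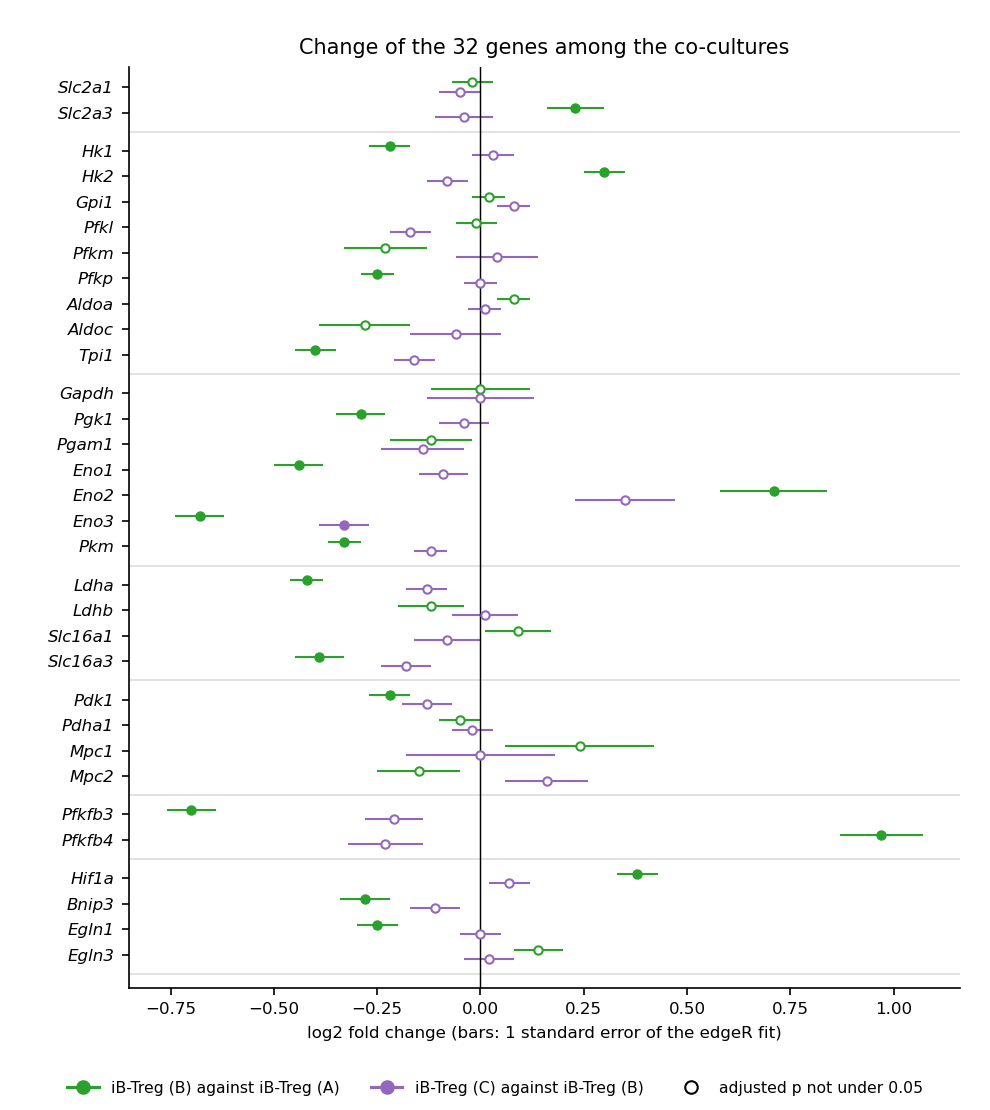
Log2 fold change of each gene in iB-Tregs (B) against (A) (green) and in (C) against (B) (purple), with bars of 1 standard error of the edgeR fit and open points where the adjusted p was not under 0.05. The green points spread from -0.70 (Pfkfb3) to 0.97 (Pfkfb4), and the purple points lie close to 0, with Eno3 as the filled one.

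Adding CCL1 and CCL20 changed 1 of the 32 genes at this threshold. Eno3 was lower in (C) than in (B) (log2 -0.33 ± 0.06, adjusted p = 0.0021), a call that was lost without B-Treg1 (adjusted p = 0.12), and no gene was higher by edgeR or DESeq2, where 1.24% of all genes were higher and 2.33% lower by edgeR. At an unadjusted p under 0.05, edgeR gave 1 higher and 9 lower. The share of all genes at that threshold was not taken, and 1.24% and 2.33% do not apply to it. Tpi1, Pfkl, Pkm and Slc16a3 were called lower under other settings (scaling or test of DESeq2, no filter on low counts, or without C-Treg1), by 0.12 to 0.27. Standard errors of 0.04 to 0.18 on the log2 scale bound what could be seen, and the largest difference that did not pass was Eno2 (0.35 ± 0.12, adjusted p = 0.11).

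Genes around the pathway were taken from lists chosen by function and tested in the fit of 13480 genes. Their counts stand beside 20.5% of all genes higher and 18.1% lower in the brain, and 39.7% and 32.5% in (B). Of 24 other hypoxia targets and oxygen sensors, 11 rose and 4 fell in the brain and 17 rose and 2 fell in (B), all against spleen, with median log2 fold changes of 0.39 and 1.06. The 4 that fell in the brain are near the share of all genes. Vegfa, the angiogenic factor, had no count in the spleen, 6.80 and 4.40 CPM in the brain and 87.9 to 109 CPM in the co-cultures, at least 16.4-fold and, in (B), at least 303-fold above a floor of 3 counts over both spleen libraries. Bhlhe40, a repressor that hypoxia and T cell activation induce, was highest in the brain, at 2271 and 1999 CPM against 48.5 and 37.8 in the spleen and 600 to 693 in culture (log2 5.61 ± 0.10 in the brain, adjusted p = 2e-16). Car12, a carbonic anhydrase, was lower in the brain (log2 -3.60 ± 0.63, adjusted p = 0.00029), at 0.00 and 1.26 CPM against 6.78 and 6.82 in the spleen. In culture it was called higher than spleen in (A) (0.64 ± 0.27, adjusted p = 0.044) and did not pass in (B) or (C). Car9, of the same family and a classic HIF target, was at most 3.00 CPM anywhere. It was called higher than spleen in (A), (B) and (C) (log2 4.08, 4.26 and 3.79, adjusted p 0.0033, 0.002 and 0.007) but not in the brain.

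Of 24 genes of the tricarboxylic acid cycle and the pyruvate dehydrogenase complex, 7 were higher and 2 lower in the brain and 12 higher and 8 lower in (B), against spleen, and the counts in (B) are not far from the shares of all genes (39.7% and 32.5%). From (A) to (B), 8 of the 24 were lower, where 14.5% of all genes were. Of 7 genes of the pentose phosphate pathway, which makes NADPH, 4 were higher in the brain and 4 in (B), led in (B) by Pgd (log2 2.00 ± 0.11, adjusted p = 2.9e-11). Among 15 tested genes of other isozymes and branches, 2 were higher and 2 lower in the brain and 6 and 3 in (B), where the 6 are at the share of all genes (39.7%). Hk3, a hexokinase of myeloid cells, was at 0.284 to 1.94 CPM in the libraries from mice, 21.2 and 20.7 in (A) and 37.2 to 38.4 in (B) and (C). The part of macrophages in its level was not tested.

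Among 13 regulators of T cell glycolysis, 5 were higher and 4 lower in the brain and 6 and 6 in (B), where 39.7% and 32.5% of all genes were. Slc7a5 and Slc3a2, the 2 chains of the amino acid carrier that feeds mTORC1, rose in both: Slc7a5 was at 43.9 and 50.6 CPM in the spleen, 94.8 and 92.1 in the brain, 421 and 426 in (A), 322 and 308 in (B) and 289 and 281 in (C). Foxo1, a transcription factor that growth signals keep out of the nucleus, was lower in (B) than in spleen (log2 -1.59 ± 0.08, adjusted p = 7.8e-12).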

How the data were processed

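RNA-seq measured 10 libraries, 2 in each of 5 groups. The authors deposited unpooled raw counts for every gene, as whole numbers, beside a column of exonic lengths. The methods name Trim Galore, HISAT2 and featureCounts on GRCm38, while HISAT2 2.0.1, HTSeq 0.6.1 and mm10 come from the notes on processing that the submitters gave. The sources used here do not say which set produced these counts or whether strand was used. Spleen and brain columns carry no replicate number and were matched to their group by name, and their rows were realigned as described above.

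Differences were tested with edgeR 4.0.16 in R 4.3.3 (TMM scaling, filterByExpr, quasi-likelihood F test, Benjamini-Hochberg adjustment over all genes tested, threshold 0.05). For those of the 32 genes that lie in the fixed row ranges, one fit of 10 libraries (13000 genes) served every comparison with spleen or brain. One fit of the 6 co-culture libraries (14713 genes) served the comparisons among co-cultures. Tests of the 5 placed genes and of genes from the other lists against spleen or brain came from a fit of 13480 genes. DESeq2 1.42.0 was an alternative. Standard errors are those of log2 fold changes. Matches between transcripts of GENCODE vM21 were found with blastn 2.17.0. Alternatives covered scaling, filter, tool, libraries fitted, each library left out and a replicate block. The genes, the lists and the comparisons were chosen with earlier results of these data known. All 32 genes are named, and genes of other lists come from the called genes with the 4 largest changes in the brain or in (B) against spleen. Some genes that this rule would name are not reported here.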

Additional observations from a re-analysis of the deposited data

How the results depend on the processing

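Scaling, filter, tool and the libraries fitted left the counts of genes called higher or lower within 1.5 times of those reported, with these exceptions. The 2 genes lower in Ischemia-Tregs than in SP-Tregs became 1 with only the 4 libraries compared. The 1 gene lower in iB-Tregs (C) than in (B) became 3 with DESeq2 size factors, 2 by DESeq2, 3 with no low-count filter and 0 with all 10 libraries. With each library left out in turn, 13 to 14 genes were higher and 1 to 3 lower in Ischemia-Tregs against SP-Tregs, 19 to 20 and 4 to 5 in (A), 17 to 18 and 4 to 5 in (B), and 17 to 18 and 5 to 6 in (C). The counts were 16 and 5 in (B) against Ischemia-Tregs, 4 to 5 and 12 to 14 in (B) against (A), and 0 and 0 to 2 in (C) against (B). Over single genes and alternatives, 1867 values kept their status as called or not called, 29 lost the call and 20 gained it. Of the values called in the reported fit or the alternative, 0 reversed direction, and directions of values called in neither were not compared. Scaling from the rows that needed no move took the median of all genes in culture against spleen from between 0.13 and 0.14 to between -0.05 and -0.04. With it, 17 genes were higher and 7 lower in (B) against SP-Tregs, Hk1 and Pfkfb3 being called lower (log2 -0.31 and -0.39) and Pgam1 losing its call. Same-numbered co-culture libraries did not deviate together (r of -0.0142 to 0.0152), and a replicate block gave the same 5 higher and 13 lower in (B) against (A) and 0 and 1 in (C) against (B). Calls of Pfkfb4 in the brain, Gapdh and Pgam1 rested on low counts and hung on single libraries. Those of Pfkfb4 and Gapdh in the brain also hung on which libraries were fitted.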
